A study of Arabidopsis thaliana with 30 samples.

Results

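The organ-specific auxin response of wild-type Arabidopsis thaliana seedlings is the difference between what auxin does in the root and what it does in the shoot. It was taken from 12 of the 30 libraries of the study, 3 in each of 4 groups: Col-0 IAA roots, Col-0 mock roots, Col-0 IAA shoots and Col-0 mock shoots (the sample labels spell the wild type Col-O). Each gene's log2 change with auxin in the root minus its log2 change in the shoot is called its organ difference here, and it was tested as an interaction on the read counts. A positive organ difference means that the signed change was more positive in the root, and a negative one that it was more positive in the shoot. A gene that fell in the shoot only thus has a positive value, and one that fell in the root only a negative value.

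All seedlings were 5 days old and had grown in a sucrose-containing liquid medium, with light on the first day and darkness afterwards. They received 10 µM indole-3-acetic acid (IAA, the main natural auxin) or the ethanol solvent (mock) for 2 h under green safe-light, and were then cut at the junction of root and shoot. The same 4 combinations of treatment and organ were also measured in aba2-3, a mutant in the abscisic acid biosynthesis gene ABA2, and these 12 libraries serve below as a separate set. The remaining 6 libraries, Col-0 treated with abscisic acid, entered only the shared estimate of spread. The labels do not say that replicates were separate cultures, so the p-values measure the spread between these samples, which may be technical. Each library is a mix of all cells of an organ, and fewer cells of a type and less RNA per cell cannot be told apart.

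Auxin is perceived by TIR1/AFB F-box receptors, which together with auxin bind the Aux/IAA repressors and mark them for destruction. This frees the ARF transcription factors, which act at auxin response elements (core TGTC, classically TGTCTC) and switch on early genes such as Aux/IAA, GH3 and SAUR genes. In the shoot of a dark-grown seedling auxin promotes cell elongation, whereas in the root it inhibits elongation and starts lateral roots.

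The start regions of 5 genes are shown first, because they belong to auxin genes whose response differed in size or in organ. AUF1, GH3.5 and GH3.2 responded in both organs to a different extent, and ACS11 and ACS8 encode the same enzyme step of ethylene synthesis but rose in different organs. Each sequence is the 250 bases before the gene start given in the deposited files, read 5′ to 3′ on the gene's strand (plus for all of them) from the RefSeq TAIR10.1 genome, and capitals mark TGTCTC or TGTCGG on either strand (GAGACA and CCGACA on the other).
AUF1: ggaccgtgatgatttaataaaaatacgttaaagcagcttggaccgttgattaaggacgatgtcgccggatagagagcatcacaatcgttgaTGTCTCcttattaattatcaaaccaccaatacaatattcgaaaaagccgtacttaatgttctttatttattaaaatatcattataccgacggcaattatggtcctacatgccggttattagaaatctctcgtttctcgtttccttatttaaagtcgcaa
GH3.5: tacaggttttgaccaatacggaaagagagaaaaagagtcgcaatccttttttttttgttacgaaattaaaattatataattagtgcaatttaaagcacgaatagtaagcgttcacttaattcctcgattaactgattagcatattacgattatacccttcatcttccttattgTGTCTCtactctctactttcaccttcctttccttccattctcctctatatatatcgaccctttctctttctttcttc
GH3.2: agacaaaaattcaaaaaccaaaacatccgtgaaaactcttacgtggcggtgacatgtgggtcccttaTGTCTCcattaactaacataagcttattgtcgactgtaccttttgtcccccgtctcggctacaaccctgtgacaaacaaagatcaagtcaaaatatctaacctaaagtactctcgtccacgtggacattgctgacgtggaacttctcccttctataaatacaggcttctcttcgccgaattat
ACS11: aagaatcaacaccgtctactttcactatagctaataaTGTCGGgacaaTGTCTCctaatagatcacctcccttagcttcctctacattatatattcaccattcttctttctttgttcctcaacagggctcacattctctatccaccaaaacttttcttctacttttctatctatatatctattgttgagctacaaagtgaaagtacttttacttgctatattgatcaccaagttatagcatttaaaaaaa
ACS8: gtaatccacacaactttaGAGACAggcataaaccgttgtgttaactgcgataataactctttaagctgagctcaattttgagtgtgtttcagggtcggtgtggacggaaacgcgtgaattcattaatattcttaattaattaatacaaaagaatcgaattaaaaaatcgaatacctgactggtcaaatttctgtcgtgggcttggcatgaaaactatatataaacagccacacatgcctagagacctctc
These windows lie at chr1:29387545-29387794 for AUF1, chr4:13653359-13653608 for GH3.5, chr4:17579407-17579656 for GH3.2, chr4:4886862-4887111 for ACS11 and chr4:17751834-17752083 for ACS8. The first base of TGTCTC stands 159 bases before the start of AUF1, 77 before GH3.5 and 183 before GH3.2. ACS11 holds TGTCGG 213 and TGTCTC 202 bases before its start, and ACS8 holds GAGACA 232 bases before it. A match of these letters is a description and not a bound site. HAT2, an auxin-induced gene that also rose in both organs to a different extent, held neither motif and is not shown. TGTCTC occurred before 13.3% of the genes called more positive in the root and 15.8% of those called more negative, beside 12.2% of tested genes.

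Total counts in the 12 libraries ranged from 17.3 M to 99.3 M (M for mega). As a check of the organ labels, 315 genes expressed in the shoot and nearly silent in the root were read. Each gene's level was taken as a percentage of its median in aba2-3 IAA shoots, where the genes were chosen. The median over the 315 genes was 0.516 to 8.93% in IAA roots and 0.556 to 8.45% in mock roots. IAA root replicate 2 and mock root replicate 3 stood at the high ends, and the other 4 roots under 1%. The shoots stood at 76.7 to 99.5% with IAA and 41.3 to 104.5% in mock, where mock shoot replicate 1 was the low one. All 17 chlorophyll-binding and Rubisco markers of the shoot were read in every library, with summed levels of 300 to 5592 CPM (counts scaled to a common library total) in IAA roots, 301 to 4850 CPM in mock roots, 57912 to 74822 CPM in IAA shoots and 28146 to 76680 CPM in mock shoots. The 11 root markers summed to 1003 to 1278 CPM in IAA roots, 951 to 1149 CPM in mock roots, 304 to 432 CPM in IAA shoots and 286 to 446 CPM in mock shoots. Of these, PLT1 was at 0 in IAA shoot replicate 3, and PLT2 at 0 in IAA shoot replicate 2 and mock shoot replicate 3. None of these markers was called for the organ difference. Leaving out those 3 libraries (IAA root replicate 2, mock root replicate 3 and mock shoot replicate 1) is given below for several counts and for the named genes whose call it ended.

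The response to auxin differed between root and shoot in a small set of genes. Of 22156 genes tested, 221 were called for the organ difference (0.997%), by edgeR's quasi-likelihood test at a Benjamini-Hochberg adjusted p under 0.05. Of these, 120 (0.542%) had the more positive response in the root and 101 (0.456%) the more negative one, and at an unadjusted p under 0.05 there were 2819. The count moved with single libraries, between 94 without IAA root replicate 3 and 538 without IAA shoot replicate 1, and was 175 (47 more positive, 128 more negative) without the 3 libraries named above, a fit in which 18 of the 45 genes named below lost their call. The size of the called differences had a median of 1.451 on the log2 scale and ran from 0.696 to 8.218.

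For orientation, IAA changed 1234 genes in the root (5.57%), with 586 higher (2.64%) and 648 lower (2.92%). In the shoot it changed 491 genes (2.22%), with 204 higher (0.921%) and 287 lower (1.3%). There were 147 genes called in both organs, and 139 of them moved in the same direction. Of the 1234 root genes, 1075 were not called for the organ difference, nor were 441 of the 491 shoot genes.

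The 221 genes fall into 7 classes by their responses in the separate organs. There were 77 that rose in the root only (median log2 change 1.10 in the root and −0.29 in the shoot), and 69 that fell in the root only (medians −1.18 and 0.31). Another 17 rose in the shoot only (medians −0.11 in the root and 1.90 in the shoot), and 20 fell in the shoot only (0.40 and −1.32). A further 8 moved in opposite directions in the 2 organs, 5 rose in both to a different extent, and 25 passed in neither organ taken alone (medians 0.40 and −0.40). In 185 of the 221 genes the estimates in the 2 organs had opposite signs. The class that fell in the shoot was the least settled: it held 20 genes, but 6 without mock shoot replicate 1, 6 without IAA shoot replicate 2, 216 without IAA shoot replicate 1 and 2 without the 3 libraries named above.

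**Figure D1:**
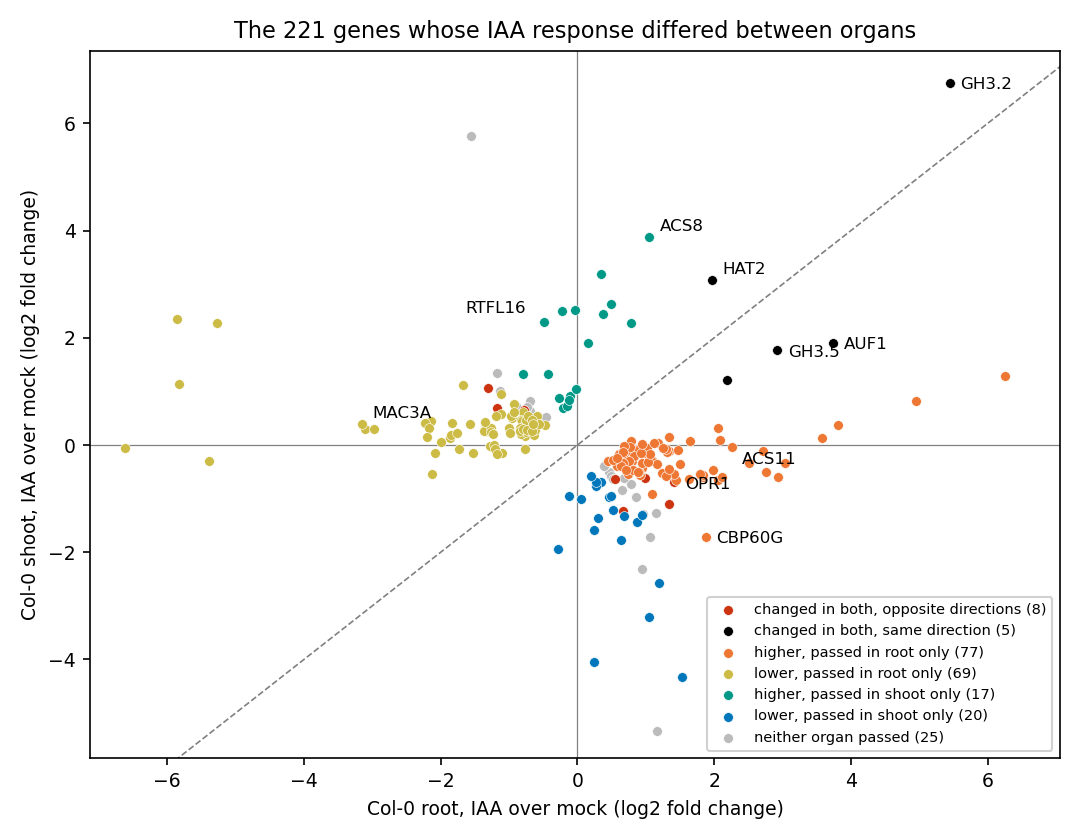
IAA response (log2 fold change, IAA over mock) in the root on the horizontal axis and in the shoot on the vertical axis for the 221 genes called for the organ difference, 1 point per gene, coloured by class; the dashed line marks equal responses. The 5 genes that rose in both organs lie at the upper right, and the 185 genes with opposite signs lie at the upper left and lower right.

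Of 29 Aux/IAA repressor genes, 15 rose in the root and 13 in the shoot, none fell, and 1 (IAA34) was called for the organ difference. Over all tested genes, 2.64% rose and 2.92% fell in the root. In the shoot 0.921% rose and 1.3% fell, and 0.997% were called for the organ difference. The list's median log2 change was 0.77 in the root and 1.25 in the shoot, beside −0.01 and −0.04 over all tested genes. IAA1, an early auxin gene, changed by 3.1 (adjusted p = 2.56e-09) in the root and 3.01 (adjusted p = 5.32e-09) in the shoot, and IAA19 by 3.35 and 2.7, with an organ difference of 0.66 (adjusted p = 0.499). Among the 6 receptor genes TIR1 (−0.55) and AFB1 (−0.71) fell in the root, and none was called in the shoot or for the organ difference. Of 15 ARF transcription factor genes, ARF10 rose in the shoot (0.94), and no other passed in either organ.

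IAA34, a divergent member of the Aux/IAA family, rose in the shoot only. It had 1.36, 2.51 and 1.39 CPM in IAA roots, against 2.25, 2.13 and 1.7 CPM in mock roots. In shoots IAA34 had 12.2, 17.3 and 19.7 CPM with IAA, against 2.77, 3.25 and 2.65 CPM in mock. The root groups overlapped, and all 3 IAA shoots lay above all mock shoots, about 5.64-fold in mean CPM. Its organ difference was −2.71 (SE 0.46, adjusted p = 0.00273).

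GH3 enzymes join auxin to amino acids and so remove active hormone. Of 9 tested genes of conjugation and oxidation, 6 rose in the root and 5 in the shoot, and 3 were called for the organ difference. The matching shares over all tested genes were 2.64%, 0.921% and 0.997%. GH3.3 changed by 6.74 in the root and 5.56 in the shoot, and its organ difference did not pass (1.18, adjusted p = 0.134).
GH3.2 (AT4G37390, chr4:17579657-17582022, plus strand) rose more in the shoot, where its mock level was low. It had 1301, 1468 and 1432 CPM in IAA roots, against 36.1, 29 and 31.4 CPM in mock roots. In shoots GH3.2 had 389.5, 238 and 235 CPM with IAA, against 2.01, 2.24 and 3.8 CPM in mock. The groups were far apart in both organs, and the ratio of mean CPM was 43.5 in the root and 108 in the shoot. This gave an organ difference of −1.31 (SE 0.33, adjusted p = 0.0483).
GH3.5 (AT4G27260, chr4:13653609-13656204, plus strand) went the other way, with the larger rise in the root. It had 511, 754 and 672 CPM in IAA roots, against 72.2, 77.5 and 105 CPM in mock roots. In shoots GH3.5 had 921, 771 and 773 CPM with IAA, against 251, 240.5 and 233 CPM in mock. All IAA libraries lay above all mock libraries of their organ, 7.60-fold in the root and 3.41-fold in the shoot, and in both treatments the root libraries lay below the shoot libraries. The organ difference was 1.16 (SE 0.27, adjusted p = 0.0319). The third gene, AT1G14130, annotated as a 2-oxoglutarate and Fe(II)-dependent oxygenase, had 18.8, 16.7 and 24.4 CPM in IAA roots, against 10.3, 11.2 and 10.1 CPM in mock roots. Its shoot groups overlapped, and the organ difference was 1.07 (SE 0.27, adjusted p = 0.0498). GH3.2 lost its call on leaving out any 1 of 9 libraries (adjusted p 0.0537 to 0.125), that is all but IAA shoot replicates 2 and 3 and mock shoot replicate 3. GH3.5 lost its call on leaving out any 1 of 9 libraries (adjusted p 0.066 to 0.124), that is all but IAA root replicate 1, mock root replicate 3 and IAA shoot replicate 1. AT1G14130 lost its call on leaving out any 1 of 8 libraries (adjusted p 0.0526 to 0.166), that is all but IAA root replicate 2, IAA shoot replicates 1 and 3 and mock shoot replicate 2.

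AUF1 (AUXIN UP-REGULATED F-BOX PROTEIN 1, AT1G78100, chr1:29387795-29389112, plus strand) encodes an F-box protein, the substrate-binding part of a ubiquitin ligase, and had the largest difference among the 5 genes induced in both organs. It had 1359.5, 1501 and 1446 CPM in IAA roots, against 108, 79.6 and 134 CPM in mock roots. In shoots AUF1 had 999.8, 940.3 and 809 CPM with IAA, against 219, 254 and 259.8 CPM in mock. IAA roots stood above IAA shoots, and mock roots below mock shoots, with no overlap between any of the 4 groups. The rise was 3.74 (SE 0.2, adjusted p = 2.84e-12) in the root and 1.91 (SE 0.18, adjusted p = 2.94e-07) in the shoot, an organ difference of 1.83 (SE 0.25, adjusted p = 0.000519), and the call was kept without any single library.

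HAT2 (AT5G47370), an auxin-induced HD-ZIP II transcription factor, rose in both organs and more in the shoot. It had 190.1, 212 and 179 CPM in IAA roots, against 51.5, 44.6 and 52 CPM in mock roots. In shoots HAT2 had 802, 801 and 749 CPM with IAA, against 96.4, 97.9 and 84.3 CPM in mock. The shoot was already the higher organ in mock seedlings and moved further away, and no groups overlapped. The organ difference was −1.11 (SE 0.2, adjusted p = 0.00521). The fifth gene of this class, AT5G38200, annotated as a glutamine amidotransferase-like protein, had 229, 177 and 192 CPM in IAA roots, against 37.1, 45.7 and 47.8 CPM in mock roots. In shoots AT5G38200 had 73.3, 50.8 and 64.2 CPM with IAA, against 32.9, 24.8 and 23.9 CPM in mock. Its groups were apart in both organs and its organ difference was 0.99 (SE 0.24, adjusted p = 0.0399). AT5G38200 lost its call on leaving out any 1 of 11 libraries (adjusted p 0.0535 to 0.178), that is all but IAA shoot replicate 1. Among 22 HD-ZIP II and shade-related bHLH genes, 2 rose in the root and 6 in the shoot, among them HAT1 (1.41), HB17 (2.71) and PRE6 (1.59), but of the whole list HAT2 alone was called for the organ difference. Over all tested genes, 2.64% rose in the root, 0.921% rose in the shoot and 0.997% were called for the organ difference.

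Genes of lateral root initiation and auxin transport were called for the organ difference in no case, beside 0.997% of all tested genes. At that share, a 0 in lists of this size does not show equal responses. Of 16 lateral root genes, 8 rose in the root and 5 in the shoot, beside 2.64% and 0.921% of all tested genes. Their median organ difference was 0.51 in Col-0 and 0.55 in aba2-3, beside 0.03 and 0.08 over all tested genes. LBD29, a transcription factor of lateral root founder cells, changed by 5.64 in the root and 5.21 in the shoot, LBD16 by 2.65 and 2.76, and GATA23 by 2.84 and 2.24. LBD14 (3.87), LBD18 (2.94) and PUCHI (1.75) passed in the root and not in the shoot, with no called organ difference. Of 20 transport genes, PIN3, PIN7 and the kinase genes PID and WAG2 rose in both organs. Among 12 biosynthesis genes, TAA1 rose (1.11) and YUC5 (−1.64) and YUC8 (−0.98) fell in the root, while YUC3 rose (1.97) and YUC6 fell (−1.38) in the shoot, again with no called organ difference.

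**Figure D2:**
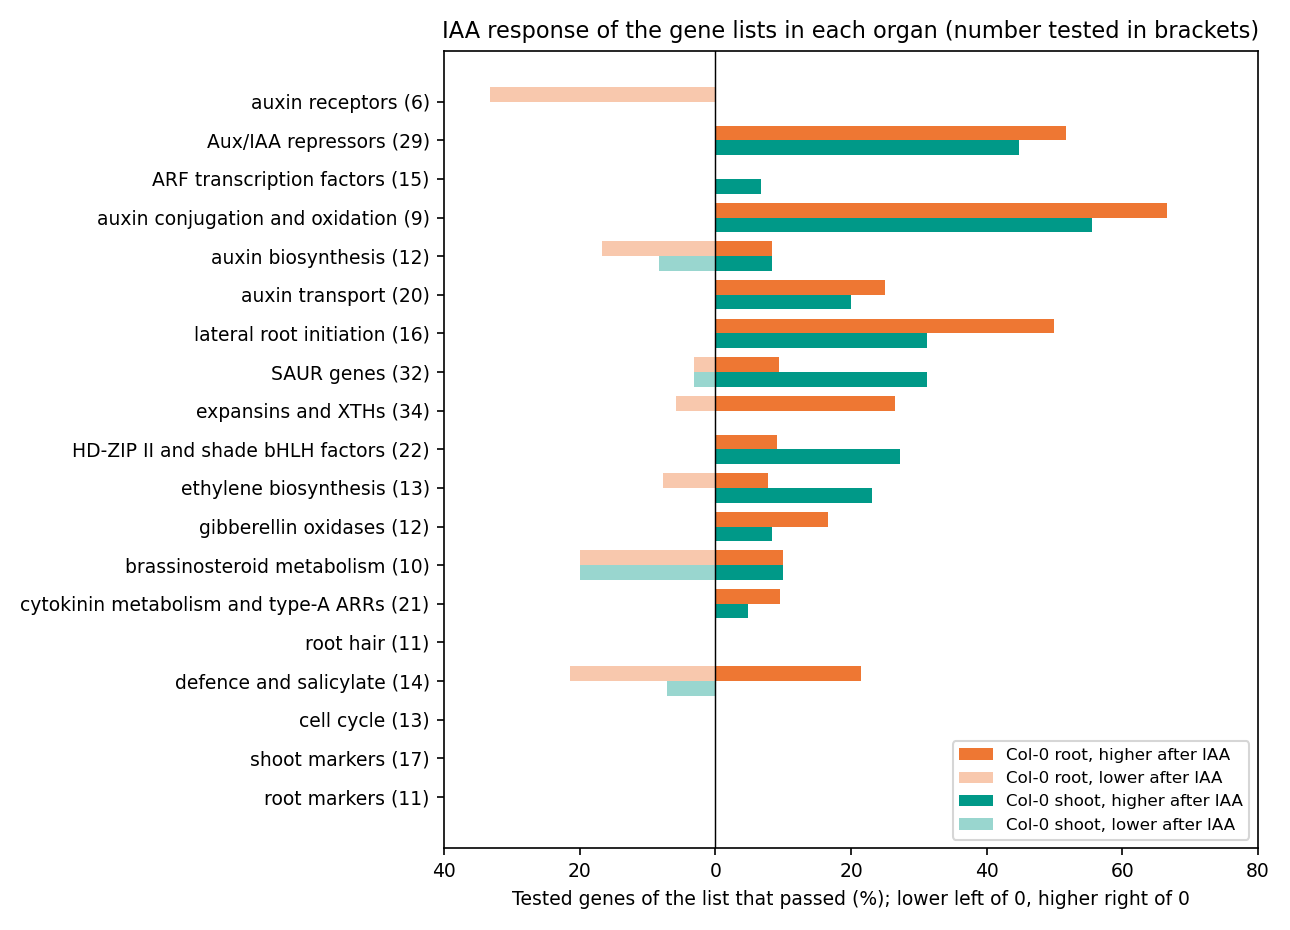
Share of each gene list's tested members called higher or lower with IAA in the root and in the shoot of Col-0, in percent. Of 29 Aux/IAA genes 15 rose in the root and 13 in the shoot, of 16 lateral root genes 8 and 5, of 32 SAUR genes 3 rose in the root and 10 in the shoot, and expansins and XTHs passed in the root only (9 higher and 2 lower of 34). Over all tested genes, 2.64% rose and 2.92% fell in the root, and 0.921% rose in the shoot.

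Of 2 growth-related lists, the expansins and XTHs held 3 genes called for the organ difference and the SAUR genes 0. SAUR genes encode small auxin-induced proteins that promote cell expansion: of 32 tested, 3 rose and 1 fell in the root, 10 rose and 1 fell in the shoot, and 0 were called for the organ difference. Their median log2 change was 0.89 in the root and 2.2 in the shoot. Their median organ difference was −0.915 in Col-0 and 0.536 in aba2-3, of opposite sign. Expansins loosen and xyloglucan endotransglucosylase/hydrolases (XTHs) remodel the cell wall, and of 34 such genes 9 rose and 2 fell in the root, 0 passed in the shoot, and 3 were called for the organ difference, all more positive in the root. Over all tested genes, 2.64% rose in the root, 0.921% rose in the shoot and 0.997% were called for the organ difference. The list's median organ difference was 0.34, beside 0.03 over all tested genes, and in aba2-3 it was −0.08, beside 0.08.
XTH20 had 22.5, 17.6 and 17 CPM in IAA roots, against 6.15, 6.74 and 8.24 CPM in mock roots. In shoots XTH20 had 10.9, 7.9 and 10.4 CPM with IAA, against 17.8, 16.5 and 11.6 CPM in mock. The root libraries with IAA lay above all mock roots and the shoot libraries with IAA below all mock shoots, although the shoot change of −0.66 (adjusted p = 0.196) did not pass. XTH20 thus had an organ difference of 2.1 (SE 0.37, adjusted p = 0.00506). EXPA4 had 41.6, 60.9 and 54.2 CPM in IAA roots, against 13.7, 20.3 and 31.9 CPM in mock roots, while its shoot libraries lay between 136 and 169 CPM in both treatments, an organ difference of 1.31 (SE 0.28, adjusted p = 0.0205). EXPB3 had 3.9, 4.09 and 7.33 CPM in IAA roots, against 2.1, 2.47 and 2.68 CPM in mock roots. Its IAA shoots had 15.1, 11.3 and 14.4 CPM and its mock shoots 15.5, 16 and 17.9 CPM, the groups apart in both organs, with an organ difference of 1.35 (SE 0.31, adjusted p = 0.0319). EXPA4 lost its call on leaving out any 1 of 8 libraries (adjusted p 0.0531 to 0.0795), that is all but IAA root replicate 1, mock root replicate 3, IAA shoot replicate 1 and mock shoot replicate 1. EXPB3 lost its call on leaving out any 1 of 8 libraries (adjusted p 0.0503 to 0.121), that is all but IAA root replicates 1 and 2, IAA shoot replicate 1 and mock shoot replicate 1. XTH17, XTH18 and XTH19 rose in the root by 1.29, 1.25 and 1.71, beside 0.16, 0.19 and 0.65 in the shoot, with adjusted p of 0.115, 0.054 and 0.0813 for the organ difference.

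The ACC synthase genes called in the root were not those called in the shoot, and for 2 of them the organ difference passed the test. Of the 1578 genes called in either organ, 147 were called in both, so calls in 1 organ only were the usual case. ACC synthase (ACS) makes the direct precursor of ethylene and is the regulated step of its synthesis; the genes are a family long known to respond to auxin. Of 13 ethylene synthesis genes tested, ACS11 rose and ACO5 fell (−0.86) in the root, while ACS4 (4.42), ACS8 and ACS9 (0 in all mock shoots and 0.591, 0.73 and 1.99 CPM in IAA shoots) rose in the shoot. ACS11 and ACS8 were called for the organ difference, with opposite signs, beside 0.997% of all tested genes. ACS4 (−2.94, adjusted p = 0.398) was not called for it.
ACS11 (AT4G08040, chr4:4887112-4888939, plus strand) had 75.8, 60.5 and 53.6 CPM in IAA roots, against 13, 13.7 and 12.9 CPM in mock roots. In shoots ACS11 had 36.7, 27.6 and 35.3 CPM with IAA, against 43.4, 31.5 and 27.4 CPM in mock. The root groups were clearly apart, 4.79-fold in mean CPM, and the shoot groups overlapped. The root change was 2.26 (SE 0.27, adjusted p = 7.88e-06), the shoot change −0.04 (adjusted p = 0.969) and the organ difference 2.3 (SE 0.37, adjusted p = 0.00216), a call kept without any single library.
ACS8 (AT4G37770, chr4:17752084-17754157, plus strand) had 1.24, 9.06 and 2.4 CPM in IAA roots, against 1.99, 2.77 and 1.24 CPM in mock roots. In shoots ACS8 had 113, 114 and 84.2 CPM with IAA, against 8.75, 6.83 and 5.67 CPM in mock. The shoot groups were apart, 14.7-fold in mean CPM, and the root groups overlapped, with IAA root replicate 2 standing above the other IAA roots. That replicate is one of the libraries with more shoot-signature RNA, at 8.93% of the shoot level given above. The organ difference was −2.83 (SE 0.7, adjusted p = 0.0464), and −4.09 (adjusted p = 0.000826) without that library. ACS8 lost its call on leaving out any 1 of 10 libraries (adjusted p 0.0505 to 0.141), that is all but IAA root replicate 2 and mock root replicate 3.

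Of 10 brassinosteroid and 12 gibberellin genes tested, 3 were called for the organ difference, beside 0.997% of all tested genes. BAS1, a cytochrome P450 that inactivates brassinosteroids, rose in the shoot only, and DWF4, the P450 at the rate-limiting step of their synthesis, fell in the shoot only.
BAS1 had 18.5, 26.9 and 17.4 CPM in IAA roots, against 21.7, 16.6 and 18.3 CPM in mock roots. In shoots BAS1 had 94.2, 74.3 and 71.9 CPM with IAA, against 25.3, 17 and 22.2 CPM in mock. The root groups overlapped and the shoot groups were apart, and the organ difference was −1.75 (SE 0.29, adjusted p = 0.00235). DWF4 had 39.7, 34.1 and 33 CPM in IAA roots, against 22, 35 and 31.8 CPM in mock roots. In shoots DWF4 had 23.2, 28.8 and 21.7 CPM with IAA, against 38.3, 44.8 and 42 CPM in mock. Again the root groups overlapped and all IAA shoots lay below all mock shoots, by −0.76 (SE 0.16, adjusted p = 0.00985), and the organ difference was 1.03 (SE 0.23, adjusted p = 0.0246). ROT3, another synthesis P450, fell in both organs (−0.76 in the root and −0.81 in the shoot).
GA3OX1, which makes bioactive gibberellin, had 102, 95.3 and 79.7 CPM in IAA roots, against 37.5, 27.3 and 35 CPM in mock roots. In shoots GA3OX1 had 34.7, 15.6 and 18.6 CPM with IAA, against 29.7, 18.2 and 25.2 CPM in mock. The root groups were apart and the shoot groups overlapped, with an organ difference of 1.56 (SE 0.38, adjusted p = 0.0464). DWF4 lost its call on leaving out any 1 of 7 libraries (adjusted p 0.0536 to 0.112), that is all but mock root replicates 2 and 3, IAA shoot replicates 1 and 2 and mock shoot replicate 1. GA3OX1 lost its call on leaving out any 1 of 10 libraries (adjusted p 0.0675 to 0.168), that is all but IAA shoot replicate 1 and mock shoot replicate 2. Of 21 cytokinin genes, 11 root hair genes and 13 cell cycle genes, 0 were called for the organ difference, beside 0.997% of all tested genes. CKX6, a cytokinin oxidase, rose in both organs (2.31 and 1.67).

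**Figure D3:**
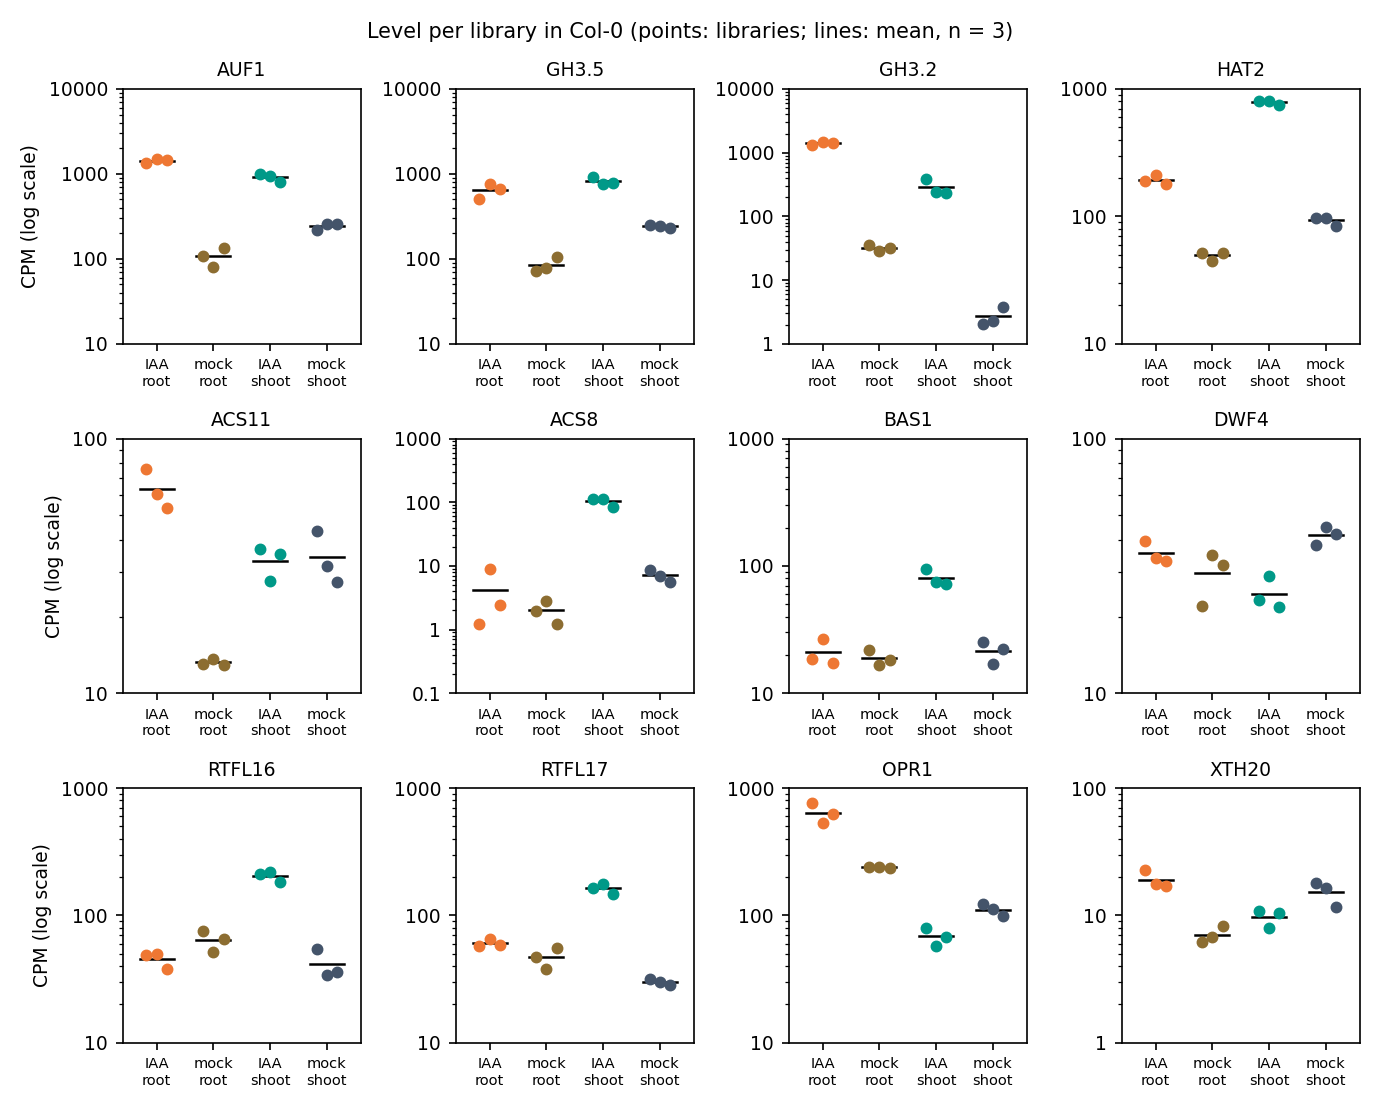
Levels of 12 genes in CPM (TMM-scaled, log axis) in IAA roots, mock roots, IAA shoots and mock shoots of Col-0; points are libraries and lines group means, 3 libraries each. ACS11 separates from its mock group in the root and ACS8, BAS1, RTFL16 and RTFL17 in the shoot, while AUF1, GH3.5, GH3.2 and HAT2 rise in both.

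**Figure D4:**
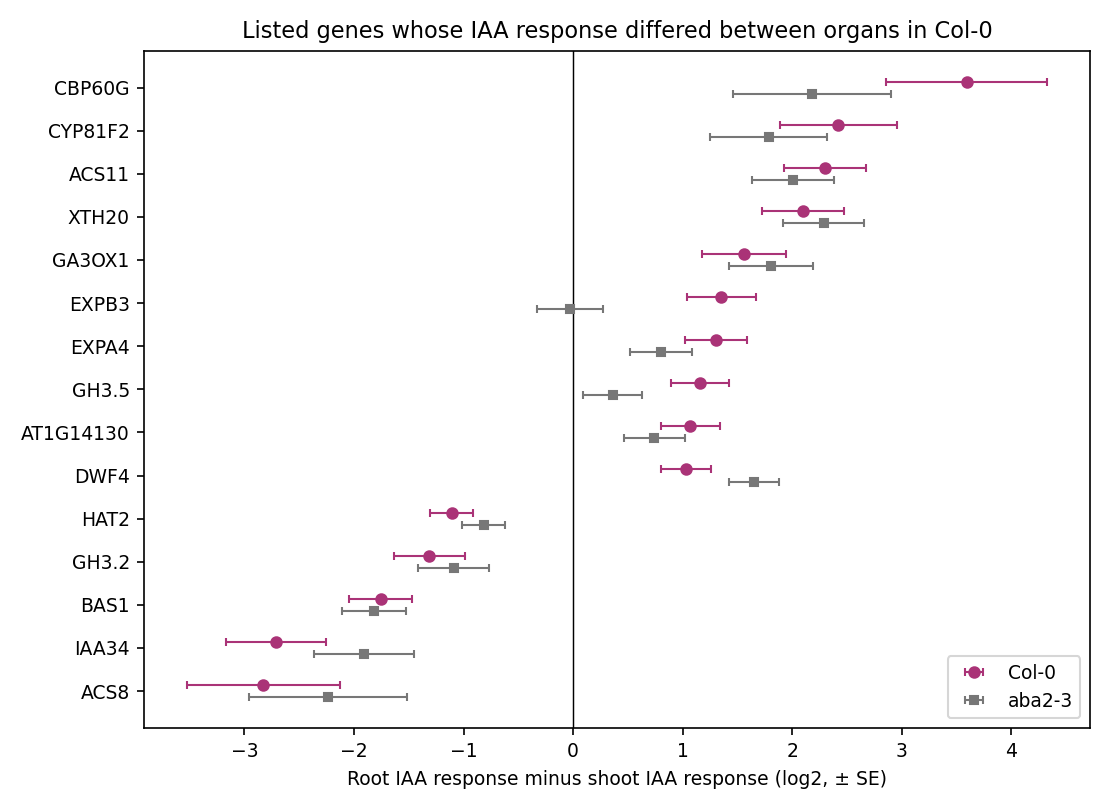
Organ difference (log2, root response minus shoot response) of the 15 list members called in Col-0, with its SE, in Col-0 and in the separate aba2-3 libraries. Positive values are a more positive change in the root than in the shoot, which includes a fall in the shoot only, as for DWF4 in Col-0. XTH20, ACS11, GA3OX1 and DWF4 lie above 1 in both genotypes, and BAS1, IAA34 and ACS8 below −1 in both.

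The 2 called defence genes rose in the root. CBP60G, a calmodulin-binding transcription factor that drives salicylic acid synthesis, had 39.2, 21.4 and 27.1 CPM in IAA roots, against 7.87, 10.7 and 5.1 CPM in mock roots. In shoots CBP60G had 2.19, 0.944 and 2.85 CPM with IAA, against 4.54, 7.45 and 7.32 CPM in mock. The groups lay apart in both organs and in opposite directions, although the shoot change of −1.71 (adjusted p = 0.0931) did not pass. Its organ difference was 3.59 (SE 0.73, adjusted p = 0.0146). CYP81F2, a P450 of indole glucosinolate modification, had 15.6, 11.7 and 11.3 CPM in IAA roots, against 4.09, 4.53 and 2.16 CPM in mock roots. Its shoot groups overlapped, and its organ difference was 2.42 (SE 0.53, adjusted p = 0.0246). The other 12 of the 14 listed defence genes were not called for the difference, and in the root WRKY40 (−1.14), WRKY46 (−1.3) and WRKY53 (−1.7) fell while PAD4 rose (0.77). Over all tested genes, 0.997% were called for the organ difference, and in the root 2.64% rose and 2.92% fell. CBP60G lost its call without IAA shoot replicate 2 (adjusted p 0.0541). CYP81F2 lost its call without IAA root replicate 1, mock root replicates 1 and 3, IAA shoot replicate 2 or mock shoot replicate 1 (adjusted p 0.0525 to 0.0802).

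In the root and the shoot 8 genes moved in opposite directions, each past the test in both organs. OPR1, a flavin-dependent reductase of the 12-oxophytodienoate reductase family (AT1G76680, chr1:28776846-28778467, plus strand), had 759, 529 and 626 CPM in IAA roots, against 239, 242 and 235 CPM in mock roots. In shoots OPR1 had 79.5, 57.5 and 68.2 CPM with IAA, against 123, 111 and 98.2 CPM in mock. It rose 2.68-fold in the root and fell to 0.617 of the mock level in the shoot, with no overlap in either, and its organ difference was 2.12 (SE 0.25, adjusted p = 5.9e-05). About 5.74% of its 50-base words also occur in other genes, so a small part of its reads may be shared.
AT4G18205, annotated as a nucleotide-sugar transporter family protein, had 15.8, 14.6 and 16.5 CPM in IAA roots, against 5.16, 6.74 and 6.7 CPM in mock roots. In shoots AT4G18205 had 10.5, 14.8 and 9.57 CPM with IAA, against 32.2, 20.4 and 22.6 CPM in mock. It went up in every IAA root and down in every IAA shoot, an organ difference of 2.43 (SE 0.27, adjusted p = 3.37e-05), with 9.07% of its words shared with other genes. AT1G08050, a RING-finger protein gene, had the same pattern, with changes of 0.66 in the root and −1.23 in the shoot and an organ difference of 1.89 (SE 0.22, adjusted p = 5.9e-05).
The opposite pattern was seen in 3 of these 8 genes. AT5G14360, a ubiquitin-like protein gene, had 6.14, 12.5 and 8.43 CPM in IAA roots, against 21.6, 21.3 and 23.7 CPM in mock roots. In shoots AT5G14360 had 48.3, 62.2 and 58 CPM with IAA, against 26.5, 33.7 and 20.2 CPM in mock. All IAA roots lay below the mock roots and all IAA shoots above the mock shoots, an organ difference of −2.37 (SE 0.38, adjusted p = 0.00206). AT3G54880, annotated as a zinc finger protein, changed by −1.18 in the root and 0.7 in the shoot, an organ difference of −1.88 (SE 0.27, adjusted p = 0.000622). All 5 named genes of this class kept their calls without any single library.

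The largest class in the reported fit rose in the root only, and the 5 named for the size of their difference include 2 annotated methyltransferases. Without the 3 libraries of uneven signature, 47 genes in all were more positive in the root, fewer than the 77 of this class. CBP60G, described above, also belongs to this class, with 3.59, but was named through the defence list. Of the 5, AT5G54710 had the largest organ difference. AT5G54710, an ankyrin-repeat protein gene, had 22.6, 14.3 and 15.3 CPM in IAA roots, against 1.83, 2.21 and 2.78 CPM in mock roots. In shoots AT5G54710 had 7.39, 12.6 and 12.3 CPM with IAA, against 21.3, 16.4 and 11 CPM in mock. The root groups were apart, 7.68-fold in mean CPM, and the shoot groups overlapped, with an organ difference of 3.53 (SE 0.62, adjusted p = 0.0045). The methyltransferase gene AT2G41380 had 66.4, 61.6 and 74.2 CPM in IAA roots, against 11.9, 15.5 and 19.5 CPM in mock roots, while its shoots lay between 2.45 and 7.91 CPM in both treatments, an organ difference of 2.7 (SE 0.44, adjusted p = 0.00216). The other methyltransferase gene, AT3G54150, had 65.3, 37.1 and 44.1 CPM in IAA roots, against 11.5, 15.3 and 8.34 CPM in mock roots. Its shoot groups overlapped, and its organ difference was 2.71 (SE 0.52, adjusted p = 0.00838). It was 2.01 (adjusted p = 0.0508) without the 3 libraries whose organ signature stood apart and 2.71 (adjusted p = 0.0543) in the fit of the 12 libraries alone. CYP706A1, a P450 gene, rose by 1.64 in the root with an organ difference of 2.27 (SE 0.34, adjusted p = 0.00103), but 47.7% of its words occur in other genes and its counts are uncertain.

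In the class that fell in the root only, MAC3A and TADA had the largest organ differences. MAC3A, a subunit of a splicing-associated complex, had 180.0, 139.8 and 174 CPM in IAA roots, against 1767, 1904 and 695 CPM in mock roots. In shoots MAC3A had 849.9, 255 and 231 CPM with IAA, against 389, 445 and 185 CPM in mock. Every IAA root lay below every mock root, but the mock roots spread widely, and the shoot groups overlapped. Its organ difference was −3.53 (SE 0.82, adjusted p = 0.0333). TADA, a chloroplast tRNA adenosine deaminase, had 39.6, 35.4 and 34.7 CPM in IAA roots, against 328, 443 and 93.9 CPM in mock roots. The same mock root, replicate 3, was the lowest mock root for both genes, and that library carries 8.45% of the shoot signature. TADA had an organ difference of −3.29 (SE 0.6, adjusted p = 0.00674). Without that library the organ difference was −3.87 (adjusted p = 0.0268) for MAC3A and −3.7 (adjusted p = 0.000616) for TADA. Without IAA shoot replicate 1 that of MAC3A was −2.68 (adjusted p = 0.0651), without the 3 libraries whose organ signature stood apart it was −3.92 (adjusted p = 0.0556), and in the fit of the 12 libraries alone neither passed (adjusted p = 0.0715 for MAC3A and 0.0665 for TADA).
CYCP4;1, a P-type cyclin, had 2.51, 2.95 and 1.73 CPM in IAA roots, against 12, 11 and 10.3 CPM in mock roots. In shoots CYCP4;1 had 14.6, 13.3 and 14.5 CPM with IAA, against 14.8, 12.8 and 10.3 CPM in mock. The root groups were tight and apart, and the shoot groups overlapped, with an organ difference of −2.37 (SE 0.39, adjusted p = 0.00235). AT4G37220, of the cold-acclimation WCOR413 family, and AT3G28865, annotated as uncharacterized, had organ differences of −2.05 (SE 0.47, adjusted p = 0.0297) and −2.04 (SE 0.49, adjusted p = 0.0394). MAC3A lost its call on leaving out any 1 of 8 libraries (adjusted p 0.0516 to 0.0961), that is all but mock root replicate 3, IAA shoot replicates 2 and 3 and mock shoot replicate 2. AT4G37220 lost its call without IAA root replicates 1 and 3, mock root replicate 3, IAA shoot replicate 3 or mock shoot replicates 2 and 3 (adjusted p 0.0649 to 0.106). AT3G28865 lost its call on leaving out any 1 of 8 libraries (adjusted p 0.0594 to 0.125), that is all but mock root replicate 3, IAA shoot replicates 2 and 3 and mock shoot replicate 2.

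The class that rose in the shoot only held ACS8, IAA34 and BAS1, described above, and 2 small-peptide genes. RTFL16 and RTFL17 belong to the ROTUNDIFOLIA-like (DEVIL) peptides, which alter organ shape when overexpressed. RTFL16 had 49.2, 49.8 and 38.1 CPM in IAA roots, against 75.2, 51.6 and 64.9 CPM in mock roots. In shoots RTFL16 had 212, 219.9 and 181 CPM with IAA, against 54.1, 34 and 36.2 CPM in mock. All IAA shoots lay far above the mock shoots, 4.93-fold in mean CPM, and in the root the IAA libraries lay slightly below, a change of −0.48 (adjusted p = 0.313) that did not pass. The organ difference was −2.79 (SE 0.37, adjusted p = 0.00031). RTFL17 had 57.6, 65.8 and 58.4 CPM in IAA roots, against 47.3, 37.7 and 55.8 CPM in mock roots. In shoots RTFL17 had 164, 176 and 148 CPM with IAA, against 31.4, 29.8 and 28.6 CPM in mock. It rose 5.43-fold in the shoot, and the root change of 0.37 (adjusted p = 0.437) did not pass, with an organ difference of −2.07 (SE 0.34, adjusted p = 0.00235).
UPB1, a bHLH factor that controls the redox balance at the root transition zone, had 18.6, 18.9 and 21.3 CPM in IAA roots, against 30.5, 38.4 and 32.9 CPM in mock roots. In shoots UPB1 had 60.6, 59.7 and 56.5 CPM with IAA, against 30.4, 24.3 and 16.1 CPM in mock. The IAA roots lay below the mock roots and the IAA shoots above the mock shoots, with an organ difference of −2.11 (SE 0.43, adjusted p = 0.014). AT1G29290, for which no role is given here, rose by 2.64 in the shoot, with an organ difference of −2.14 (SE 0.42, adjusted p = 0.0107) that did not pass in the fit of the 12 libraries alone (adjusted p = 0.0834). RTFL16, RTFL17, UPB1, IAA34 and BAS1 kept their calls under all 21 alternatives tried.

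In the class that fell in the shoot only, mock shoot replicate 1 was the highest mock shoot for MSS1 and WRKY6, and that library has the low shoot signature of 41.3%. MSS1, a hexose transporter, had 129.9, 163 and 179 CPM in IAA roots, against 80.2, 130.2 and 82.6 CPM in mock roots. In shoots MSS1 had 37.3, 21.8 and 30.1 CPM with IAA, against 107, 45.7 and 70.2 CPM in mock. The root groups overlapped, all IAA shoots lay below all mock shoots, and the organ difference was 2.01 (SE 0.4, adjusted p = 0.0116). WRKY6, a stress and senescence transcription factor, had 151, 120.3 and 122 CPM in IAA roots, against 79.1, 98.6 and 96.8 CPM in mock roots. In shoots WRKY6 had 15.2, 11.2 and 10.5 CPM with IAA, against 44, 19.7 and 21.7 CPM in mock. Groups were apart in both organs and in opposite directions, with an organ difference of 1.72 (SE 0.38, adjusted p = 0.0242).
Prx37, a class III peroxidase with 7.03% of its words in other genes, had an organ difference of 2.26 (SE 0.45, adjusted p = 0.0116), and AT5G41750, a TIR-NBS-LRR resistance protein gene with 9.92% of its words in other genes, one of 2.31 (SE 0.45, adjusted p = 0.0107). AT2G27660, a C1-domain protein gene, was the fifth, with 1.66 (SE 0.38, adjusted p = 0.0331). Without the 3 libraries of uneven signature, none of the 5 passed: the adjusted p of MSS1 was 0.12, of WRKY6 0.118, of AT2G27660 0.199, of AT5G41750 0.0907 and of Prx37 0.055. WRKY6 lost its call without IAA root replicates 1 and 3, mock root replicate 1, IAA shoot replicates 2 and 3 or mock shoot replicate 1 (adjusted p 0.0522 to 0.0891). AT2G27660 lost its call on leaving out any 1 of 10 libraries (adjusted p 0.0556 to 0.107), that is all but IAA shoot replicate 1 and mock shoot replicate 2.

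In 25 genes neither organ passed alone and only their difference did. PER4, a class III peroxidase, had 96.7, 85 and 88.2 CPM in IAA roots, against 43.9, 58.7 and 46.2 CPM in mock roots. In shoots PER4 had 7.21, 5.62 and 5.35 CPM with IAA, against 18.7, 7.61 and 9.38 CPM in mock. The groups were apart in both organs, up in the root and down in the shoot, with an organ difference of 1.83 (SE 0.41, adjusted p = 0.0276). ABCA7, an ABC transporter, had the same pattern and an organ difference of 1.5 (SE 0.31, adjusted p = 0.0162). The reverse pattern was that of AT5G41140 (−1.63, adjusted p = 0.0395), which shares 47 exon bases with its neighbour UVH1, of AT1G70950 (−1.45, adjusted p = 0.0276) and of AT3G15115 (−1.43, adjusted p = 0.0294). PER4 lost its call on leaving out any 1 of 7 libraries (adjusted p 0.0597 to 0.0915), that is all but IAA root replicate 2, mock root replicate 2, IAA shoot replicate 1 and mock shoot replicates 2 and 3. ABCA7 lost its call without IAA root replicate 1 or IAA shoot replicates 2 and 3 (adjusted p 0.0517 to 0.0817). AT5G41140 lost its call on leaving out any 1 of 9 libraries (adjusted p 0.0627 to 0.111), that is all but IAA shoot replicates 1 and 2 and mock shoot replicate 2. AT1G70950 lost its call without IAA root replicate 3, mock root replicate 1, IAA shoot replicate 3 or mock shoot replicates 1 and 3 (adjusted p 0.0501 to 0.0937). AT3G15115 lost its call on leaving out any 1 of 9 libraries (adjusted p 0.0536 to 0.105), that is all but IAA root replicate 2, IAA shoot replicate 1 and mock shoot replicate 1.

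The same organ difference was measured in the 12 aba2-3 libraries, which share no sample with Col-0 but entered the same estimate of spread. Calls in Col-0 and in aba2-3 are therefore not fully independent. In aba2-3, 485 genes were called (2.19%), 253 more positive in the root (1.14%) and 232 more negative (1.05%). Of the 221 Col-0 genes, 205 (92.8%) had the same sign in aba2-3, against 58.9% of all tested genes, and 66 (29.9%) were also called there in the same direction, against 1.75% of all tested genes. None was called in the opposite direction. The estimates in aba2-3 were smaller: the 120 genes more positive in the Col-0 root had a median of 1.43 in Col-0 and 0.90 in aba2-3, and the 101 more negative ones −1.51 in Col-0 and −0.89 in aba2-3. The Col-0 genes were selected for passing the test, so their Col-0 values are a chosen set and the sizes cannot be compared as a test.
Among the named genes, AUF1 (1.83, adjusted p = 0.000375), HAT2 (−0.81, adjusted p = 0.027), ACS11 (2.01, adjusted p = 0.0048), XTH20 (2.29, adjusted p = 0.00159), GA3OX1 (1.81, adjusted p = 0.0125), BAS1 (−1.82, adjusted p = 0.00131), DWF4 (1.65, adjusted p = 0.000375), IAA34 (−1.91, adjusted p = 0.0263), RTFL16 (−1.54, adjusted p = 0.0244) and OPR1 (1.21, adjusted p = 0.0107) were called in aba2-3 as well. GH3.2 (−1.09, adjusted p = 0.0818), GH3.5 (0.36, adjusted p = 0.587), ACS8 (−2.24, adjusted p = 0.111) and RTFL17 (−1.13, adjusted p = 0.0853) had the same sign and did not pass. MAC3A (−0.34, adjusted p = 0.895), TADA (−0.17, adjusted p = 0.934) and EXPB3 (−0.03, adjusted p = 0.982) were near 0 in aba2-3.
The difference between the genotypes was tested directly. It was called for 2 genes (0.00903%, with 1701 at an unadjusted p under 0.05), AT3G41768 and AT5G40450, and neither is among the 221. For none of the 221 genes was a dependence on genotype called.

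**Figure D5:**
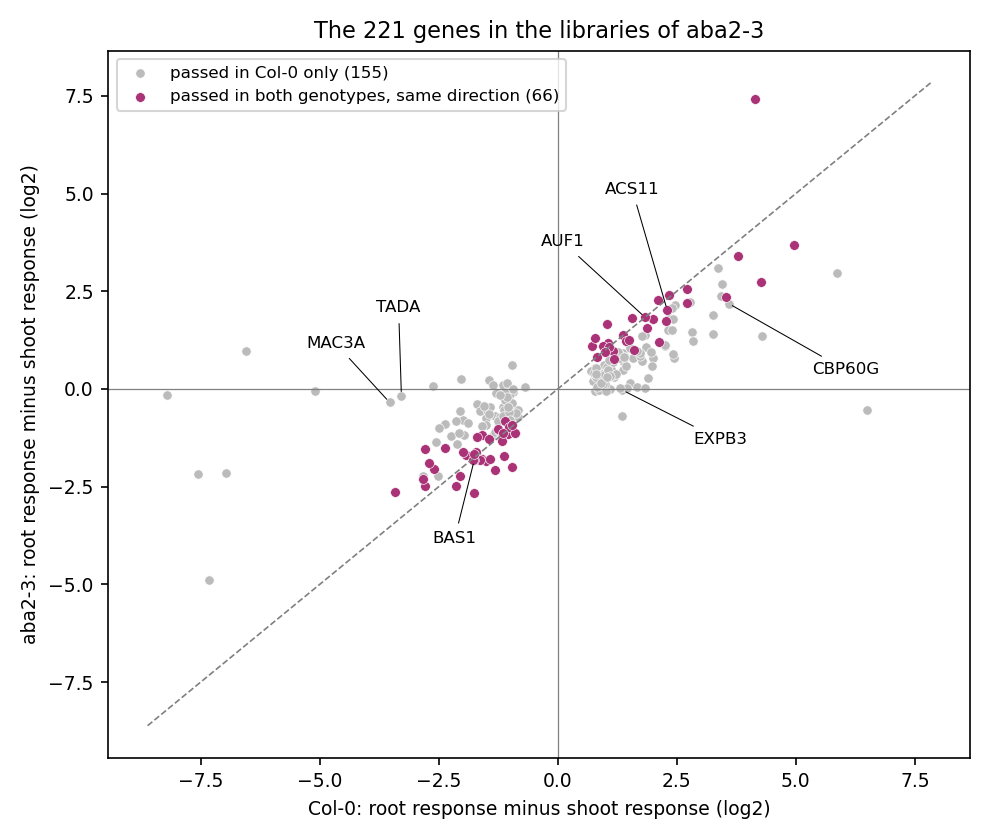
Organ difference (log2) of the 221 genes in Col-0 on the horizontal axis and in aba2-3 on the vertical axis; 66 genes called in both genotypes are purple and the other 155 grey. The points lie mostly at the upper right and lower left, with 205 of 221 on the same side of 0.

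The start regions of the called genes were searched for the auxin response element. TGTCTC on either strand occurred in the 250 bases before the start of 13.3% of the genes more positive in the root (16 of 120) and 15.8% of those more negative (16 of 101), beside 12.2% of 22030 tested genes. TGTCGG occurred in 7.5% of the more positive and 7.92% of the more negative genes, beside 4.71% of tested genes. TGTCTC was held by 3 of the 5 genes that rose in both organs (AUF1, GH3.5 and GH3.2), while HAT2 had neither motif in its window. In the 17 genes that rose in the shoot only, 5 held TGTCTC, among them RTFL16, ACS8, BAS1 and IAA34, and 3 held TGTCGG, among them RTFL16, and RTFL17 held neither.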

How the data were processed

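The deposited files list 33602 genes with 3 values per library: a whole-number count per gene, a CPM and an RPKM, per the file headers. Deposited CPM and RPKM values equalled count over library total, and that over exon length, in 30 of 30 files, and were not used further. Per the submitters' processing notes, STAR, Subread, featureCounts, edgeR, limma and TAIR10 were used; versions and strand setting are not given in the sources used here, so overlapping and antisense genes are uncertain.

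The 30 libraries entered 1 model of 10 group means (20 residual degrees of freedom) in edgeR 4.0.16 (R 4.3.3, limma 3.58.1; TMM, filterByExpr, 22156 genes, quasi-likelihood F test, two-sided). CPM in the text is on TMM-scaled library sizes. SE is the absolute log2 change over the square root of F. Genes were called at a Benjamini-Hochberg adjusted p under 0.05 within each comparison. The labels give 1 run identifier for every library, which leaves no batch to compare. Replicate pairs differed by a chi-square per degree of freedom of 14.9 to 149, so none matched within sampling noise.

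Alternatives were RLE size factors, DESeq2 1.42.0, all genes kept, only genes averaging 20 or more counts, a minimum fold of 2, the 12 libraries alone, a replicate block, covariates for the other organ's signature genes, and libraries left out singly or the 3 uneven ones together.

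Named genes are up to 5 per class with the largest absolute difference at a mean log2 CPM of at least 3 (35 genes), and every called member of 19 lists (320 genes, 15 called), 45 in all. The members and lists were chosen with earlier results of these data known. Of the 221 called genes, 4 had a Col-0 group at 0 counts and get no fold, 16 share exon bases with another gene and 18 share over 5% of their 50-base words. Deposited coordinates overlay RefSeq TAIR10.1 (97.9% of 121040 introns were GT-AG). On simulated counts for the Col-0 organ difference (21847 genes, 200 changed by a log2 of 2), 68% were recovered and 4.9% of calls were false.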

Additional observations from a re-analysis of the deposited data

Results flagged for a closer look

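The response to IAA differed between root and shoot in 221 genes in Col-0 and in 485 in aba2-3, by the test of the difference itself. The values below are log2 organ differences in Col-0 (root response minus shoot response) of the named genes, each flagged because that test passed.

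Among genes that moved in opposite directions in the 2 organs, these were AT5G14360 −2.37, AT3G54880 −1.88, AT1G08050 1.89, OPR1 2.12 and AT4G18205 2.43. Among genes that rose in both organs they were GH3.2 −1.31, HAT2 −1.11, AT5G38200 0.99, GH3.5 1.16 and AUF1 1.83. Genes that rose in the root only had AT1G14130 1.07, EXPA4 1.31, EXPB3 1.35, GA3OX1 1.56, XTH20 2.1, CYP706A1 2.27, ACS11 2.3, CYP81F2 2.42, AT2G41380 2.7, AT3G54150 2.71, AT5G54710 3.53 and CBP60G 3.59. Genes that fell in the root only had MAC3A −3.53, TADA −3.29, CYCP4;1 −2.37, AT4G37220 −2.05 and AT3G28865 −2.04. Genes that rose in the shoot only had ACS8 −2.83, RTFL16 −2.79, IAA34 −2.71, AT1G29290 −2.14, UPB1 −2.11, RTFL17 −2.07 and BAS1 −1.75, and genes that fell in the shoot only had DWF4 1.03, AT2G27660 1.66, WRKY6 1.72, MSS1 2.01, Prx37 2.26 and AT5G41750 2.31. Genes that passed in neither organ alone had AT5G41140 −1.63, AT1G70950 −1.45, AT3G15115 −1.43, ABCA7 1.5 and PER4 1.83.

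The organ difference itself differed between Col-0 and aba2-3 in 2 genes. AT3G41768 differed by 3.5 (SE 0.40, adjusted p = 0.000127 in edgeR's quasi-likelihood test), with an organ difference of 0.40 in Col-0 and −3.1 in aba2-3. AT5G40450 differed by −2.78 (SE 0.47, adjusted p = 0.0372), with −0.81 in Col-0 and 1.97 in aba2-3. For both genes the aba2-3 mock roots stood apart. AT3G41768 had a mean of 666 CPM there, against 119 CPM in aba2-3 IAA roots and 140 CPM in Col-0 mock roots. AT5G40450 had 231 CPM there, against 917 and 945 CPM in those groups. The cause was not tested.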

How the results depend on the processing

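None of the 45 named genes' organ differences changed sign under any alternative. The balance of calls did turn, with 120 more positive and 101 more negative in the root in the reported fit, 47 and 128 without IAA root replicate 2, mock root replicate 3 and mock shoot replicate 1 together, and 100 and 139 at a mean count of at least 20. With DESeq2 1.42.0 the calls numbered 2040 in the root, 1103 in the shoot, 713 for the organ difference in Col-0, 993 in aba2-3 and 78 for the genotype difference. No filter on low counts gave 4 for the genotype difference, and a 2-fold minimum gave 532 in the root and 291 in the shoot. The 12 compared libraries alone gave 106 organ differences, and covariates for the other organ's signature gave 320 calls in the shoot. Without the same 3 libraries, the root had 681 calls, the genotype difference 10, and 46.3% of the called genes were also called in aba2-3. Of the organ differences, 26.9% of 175 were then more positive in the root, 41.8% of 239 at a mean count of at least 20, and 54.3% of 221 as reported. Leaving out these 3 libraries ended the calls of 18 named genes (adjusted p 0.0508 to 0.201), which were ABCA7, AT1G14130, AT1G70950, AT2G27660, AT3G54150, AT5G38200, AT5G41140, AT5G41750, CYP81F2, DWF4, GA3OX1, GH3.2, GH3.5, MAC3A, MSS1, PER4, Prx37 and WRKY6. The fit of the 12 libraries alone ended those of 23 (adjusted p 0.0543 to 0.185), which were ABCA7, ACS8, AT1G14130, AT1G29290, AT1G70950, AT2G27660, AT3G15115, AT3G28865, AT3G54150, AT4G37220, AT5G38200, CYP81F2, DWF4, EXPA4, EXPB3, GA3OX1, GH3.2, GH3.5, MAC3A, MSS1, PER4, TADA and WRKY6.

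Leaving out 1 library gave 94 to 538 organ differences in Col-0, 563 to 1339 root calls, 164 to 797 shoot calls, 225 to 485 organ differences in aba2-3, 1 to 12 genotype differences, 89.5 to 97.5% of the same sign in aba2-3, and 18.8 to 40.4% also called there; the causes were not tested. A fit with the replicate number as a block gave 237 organ differences and ended the calls of ACS8 (adjusted p = 0.0582) and AT1G14130 (0.0584); over the 4 Col-0 groups the numbers do not pair the samples (r of same-numbered deviations −0.345 to 0.39, 8 of 18 over 0.1; 13 of 36 checks matched best with their own number). The 3 pairs of IAA and mock shoots were all over 0.1 (0.349, 0.138 and 0.13), and with the block the shoot response had 508 calls, against 491. Of the 45 named genes, 18 kept their call in all 21 alternatives, 24 in all 12 fits without 1 library, and 27 lost it at least once.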

Other observations

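Further gene families were looked at after their values had been seen, so the counts below are descriptions. Of 20 tested RTFL/DVL peptide genes, 2 rose and 1 fell in the root, 7 rose in the shoot, and 4 were called for the organ difference, all more negative in the root (RTFL12, RTFL15, RTFL16 and RTFL17). Over all tested genes, 2.64% rose and 2.92% fell in the root, 0.921% rose in the shoot, and 0.456% were called more negative in the root. RTFL15 had 12.9, 10.4 and 9.69 CPM in IAA roots, against 11.4, 8.2 and 6.33 CPM in mock roots. In shoots RTFL15 had 15.5, 19.5 and 15 CPM with IAA, against 0.682, 1.83 and 3.02 CPM in mock. Root libraries overlapped between treatments, and every IAA shoot lay above every mock shoot, with an organ difference of −2.84 (SE 0.61, adjusted p = 0.0205). RTFL12 had 20.8, 20.8 and 29.7 CPM in IAA roots, against 38.8, 61.1 and 42.5 CPM in mock roots, the IAA roots below the mock roots, and an organ difference of −1.32 (SE 0.32, adjusted p = 0.0425). The family's median organ difference was −0.53, beside 0.03 over all tested genes, and in aba2-3 it was 0.165, beside 0.08.

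Of 6 tested genes of nitrate assimilation, 3 rose in the root, 0 passed in the shoot, and the same 3 were called for the organ difference, beside 2.64% of all tested genes higher in the root and 0.997% called for the organ difference. NIA1, a nitrate reductase, had 73.3, 77.2 and 101 CPM in IAA roots, against 22.9, 39.7 and 37.1 CPM in mock roots. In shoots NIA1 had 72, 58.3 and 47.1 CPM with IAA, against 82.5, 81.6 and 76.2 CPM in mock. All IAA roots lay above all mock roots, and all IAA shoots below all mock shoots, with an organ difference of 1.77 (SE 0.37, adjusted p = 0.0177). NIR1, nitrite reductase, had 277, 251 and 255 CPM in IAA roots, against 162, 169 and 161 CPM in mock roots, and an organ difference of 1.00 (SE 0.23, adjusted p = 0.0305). RFNR1, a root-type ferredoxin reductase that supplies electrons to nitrite reductase, had one of 0.71 (SE 0.17, adjusted p = 0.0376).

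Of 28 tau glutathione S-transferase genes, which conjugate glutathione to reactive compounds, 5 rose and 2 fell in the root, 0 passed in the shoot, and 2 were called for the organ difference, beside 2.64% higher and 2.92% lower in the root and 0.997% called for the difference over all tested genes. GSTU12 had 41, 25 and 27.8 CPM in IAA roots, against 4.09, 4.42 and 2.94 CPM in mock roots, while its shoot groups overlapped between 1.07 and 5.94 CPM, with an organ difference of 3.36 (SE 0.82, adjusted p = 0.0425). Of 3 tested 12-oxophytodienoate reductase genes, OPR1 and its neighbour OPR2 were called. OPR2 lies 423 bases from OPR1, had an organ difference of 1.03 (SE 0.22, adjusted p = 0.0178), and 9.54% of its 50-base words occur in other genes. Of 7 tested trehalose-6-phosphate phosphatase genes, 1 was called more positive and 1 more negative in the root. In 5 pairs of adjacent genes both members were called: OPR1 with OPR2, AT5G54710 with AT5G54720, AT5G52750 with AT5G52760, AT5G64250 with EXL2, and AT2G41090 with TCH3. The number of such pairs to be met without any link between neighbours was not computed, so this count is a description only.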
